A study of Mus musculus with 4 samples.

Results

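The RNA of the hypoxia-inducible factor (HIF) subunits, their oxygen-sensing hydroxylases and the VHL protein was followed in mouse embryonic stem cells (mESCs). Their CTCF was either wild-type or mutated at a site that carries the sugar O-GlcNAc. The 10 genes were taken by symbol as the genes of this pathway, with earlier results of these data known, and are 10 of the 37620 genes in the count table: Hif1a, Epas1, Hif3a, Arnt, Arnt2, Egln1, Egln2, Egln3, Hif1an and Vhl. All 10 had enough reads to be among the 16264 genes tested. RNA was sequenced from 2 libraries of WT_CTCF and 2 libraries of MUT_CTCF mESCs, which the study's methods call biological replicates. Both lines derive from CTCF-EGFP-AID mESCs, in which auxin degrades the tagged endogenous CTCF, and both were cultured with LIF and serum on gelatin. WT_CTCF mESCs then relied on wild-type CTCF from a vector, and MUT_CTCF mESCs on CTCF mutated at T668, where the study mapped the sugar. The study reports a decreased O-GlcNAc signal on the mutated CTCF. Each line is a clone picked for its level of exogenous CTCF, so the mutation and any other difference between the 2 clones cannot be told apart, and the p-values measure only the spread between cultures of these clones.

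Under normal oxygen, prolyl hydroxylases (the EGLN enzymes) hydroxylate prolines of the HIF alpha subunits, VHL binds the hydroxylated form and recruits a ubiquitin ligase, and the alpha subunit is degraded. The asparaginyl hydroxylase encoded by Hif1an blocks the contact of the alpha subunit with its coactivators. When oxygen is low the alpha subunit escapes, pairs with ARNT and binds the letters ACGTG or GCGTG in DNA, and Egln1 and Egln3 are themselves known among the genes it induces. The alpha subunits are thus controlled mainly as proteins, and only RNA was measured here.

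The substrates of the enzymes are shown first, since the report is about the balance between the 2 sides of this reaction. In the longest coding sequence of each alpha subunit in the GENCODE M1 annotation, the leucine-x-x-leucine-alanine-proline motif that prolyl hydroxylases recognise was searched in frame. Hif1a held 2 matches among its 836 codons, Epas1 held 2 among 874 and Hif3a held 1 among 664. The sequences are given 5′ to 3′ on the coding strand, with the codon of the hydroxylated proline in capitals and codons counted from the start codon.
Hif1a, codon 402: ctcactctgctggctCCA
Hif1a, codon 577: ttggagatgctggctCCC
Epas1, codon 405: ctggcccagttggccCCC
Epas1, codon 530: ttggagaccttggcaCCC
Hif3a, codon 489: ttggagatgctggccCCC

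The cysteine-glutamate-valine-asparagine stretch, which holds the asparagine that the product of Hif1an hydroxylates, was found once in Hif1a and once in Epas1 and had no match in Hif3a. The codon of this asparagine is in capitals.
Hif1a, codon 813: tgtgaagttAAT
Epas1, codon 851: tgtgaggtgAAC

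The letters ACGTG and GCGTG were searched on both strands in RefSeq promoter windows of 250 bases before to 50 after a start site. Only the windows of the 10 genes were placed on the NCBIM37 (mm9) genome, by exact match. Of 32851 RefSeq windows 43.8% held at least 1 match. There were 10 windows for 9 of the 10 genes, with 2 for Egln2 and no entry for Epas1, and 7 of the 10 held a match. The window at the annotated start of Egln2 held 6 matches and that of Hif1a 3, and in each of these windows 2 of the matches are the same palindrome read on both strands. There were 2 matches each at Hif3a and Egln1, 1 each at Arnt, Egln3 and the second start of Egln2, and none at Arnt2, Hif1an and Vhl. The Hif1a window belongs to a start site at base 75008854, downstream of the annotated gene start at 75002362. The windows differed in base composition, from 49.3% GC at the second start of Egln2 to 86.0% at Egln1. The 250 bases before the start sites of Egln1 and Egln3 are shown because these were the only genes of the 10 whose counts passed the test described below, and capitals mark the matches. A match is only a run of letters, and no binding was measured here.
Egln1, chr8:127473155-127473404, minus strand: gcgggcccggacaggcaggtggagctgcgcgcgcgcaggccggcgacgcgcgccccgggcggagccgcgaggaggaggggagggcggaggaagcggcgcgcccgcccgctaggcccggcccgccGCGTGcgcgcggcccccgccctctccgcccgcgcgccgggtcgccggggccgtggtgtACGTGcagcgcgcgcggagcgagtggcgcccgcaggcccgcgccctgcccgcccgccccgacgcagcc
Egln3, chr12:55304862-55305111, minus strand: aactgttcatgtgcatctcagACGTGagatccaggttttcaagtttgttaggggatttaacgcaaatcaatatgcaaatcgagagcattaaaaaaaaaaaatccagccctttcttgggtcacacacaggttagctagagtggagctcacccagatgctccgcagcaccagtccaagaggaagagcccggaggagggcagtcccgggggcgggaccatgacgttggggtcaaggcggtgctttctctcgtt

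Each library held 40524694 to 40977464 counts, with TMM scaling factors of 0.994 to 1.01. Normalized counts below are counts brought to a common library size with these factors. A log2 fold change compares MUT_CTCF to WT_CTCF mESCs and was tested by the quasi-likelihood F-test of edgeR, with Benjamini-Hochberg adjustment across the 16264 genes and a threshold of 0.05. With 2 libraries against 2, an exact two-sided permutation test cannot give a p below 0.333, so each test rests on the spread that edgeR shares across genes. The 10 stem cell markers looked up (among them Pou5f1, Nanog and Zfp42) were all detected, and summed to 6648 to 6714 CPM (counts per 1000000 counts of a library, with its TMM factor) in WT_CTCF and 6606 to 6629 CPM in MUT_CTCF libraries. Of these, Utf1 and Dppa5a were lower (log2 fold changes -0.21 and -0.099, adjusted p = 0.00499 and 0.0157, edgeR) and Sox2 higher (0.095, adjusted p = 0.0358). Fibroblast and feeder markers (6 genes) summed to 45.5 to 47.0 and 46.3 to 51.8 CPM. Endothelial markers (4 genes) summed to 345.1 to 352.3 and 356.8 to 357.4 CPM, most of it Pecam1, which mESCs express, while the defining marker Cdh5 had 4 to 11 counts per library. Primitive endoderm markers (6 genes) summed to 16.2 to 16.7 CPM in WT_CTCF and 17.5 to 22.0 CPM in MUT_CTCF libraries, and trophectoderm markers (4 genes) to 13.4 to 14.8 and 9.77 to 10.1 CPM. Neural markers (3 of 4 found) summed to 336.6 to 338.1 and 293.7 to 299.7 CPM, nearly all of it Tubb3, and Pax6 had at most 18.8 normalized counts. Cdx2 of the trophectoderm list (-0.97, adjusted p = 0.000227, edgeR) and Tubb3 (-0.19, adjusted p = 5.01e-05) were lower. Of these 6 sums only that of the fibroblast and feeder markers overlapped between the lines. The nearest libraries of WT_CTCF and MUT_CTCF were close for the stem cell sum (6648 and 6629 CPM) and the endothelial sum (352.3 and 356.8 CPM). Among single tested genes, both MUT_CTCF libraries were above both WT_CTCF libraries for 22.3% and below them for 22.3%. The part of these markers in the results below was not tested. In bulk RNA, fewer cells of a type and less RNA per cell cannot be told apart.

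Among the 10 genes, Egln1 and Egln3 rose in MUT_CTCF mESCs, and none fell. That is 2 of 10 genes higher at an adjusted p under 0.05, where 1.56% of all tested genes were higher, and 0 of 10 lower, where 1.61% were lower. At an unadjusted p under 0.05 there were 5 of the 10 genes (Arnt2, Egln1 and Egln3 higher, Hif1a and Egln2 lower), against 15.3% of all tested genes. None of the 10 met the criterion of the study's methods, a fold change above 2 at an unadjusted p under 0.05, which 1.3% of the tested genes met. The MUT_CTCF values both exceeded the WT_CTCF values for 4 of the 10 genes (Hif3a, Arnt2, Egln1 and Egln3), against 22.3% of the tested genes, and below them for 2 (Hif1a and Egln2), against 22.3%. The median log2 fold change of the 10 genes was 0.044, and that of all tested genes 0.0034.

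**Figure D1:**
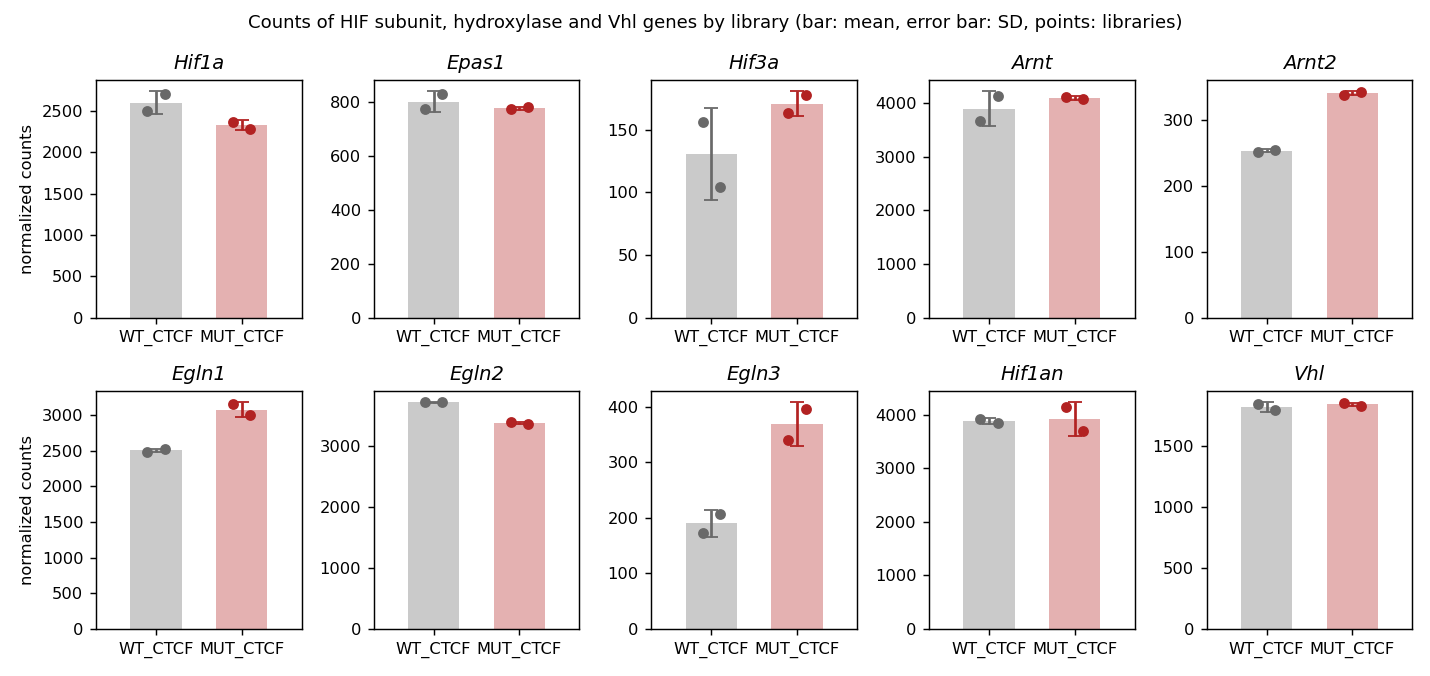
Normalized counts of the 10 genes in each library, with a panel per gene, bars for the mean of 2 libraries, error bars for the SD and points for the libraries. Egln3 (172.3 and 207.5 against 340.0 and 395.9), Egln1 and Arnt2 show MUT_CTCF points clear of the WT_CTCF points, while those of Epas1, Arnt, Hif1an and Vhl overlap.

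The prolyl hydroxylases divided. Egln3, which encodes PHD3, lies on chromosome 12 (55279968 to 55304847, minus strand, mm9, ENSMUSG00000035105). Normalized counts were 172.3 and 207.5 in WT_CTCF and 340.0 and 395.9 in MUT_CTCF mESCs. Every MUT_CTCF value was above every WT_CTCF value, and the gap between the lines was wider than the spread within either. Its mean went from 189.9 ± 24.9 to 368.0 ± 39.5 (SD, n = 2), or 0.95 in log2 fold change (standard error 0.157, 95% interval 0.64 to 1.27, adjusted p = 4.05e-05). In fold, that is 1.94 with an interval of 1.56 to 2.41, and its p ranked 48 among the tested genes.

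Egln1, which encodes PHD2, regarded as the main oxygen sensor of the family, lies on chromosome 8 (127432496 to 127473154, minus strand, ENSMUSG00000031987). It had 2486 and 2520 normalized counts in WT_CTCF and 3147 and 3005 in MUT_CTCF mESCs. The groups did not overlap here either, and with 2482 to 3174 reads per library the error was small. Its mean went from 2503 ± 24.0 to 3076 ± 99.9 (SD, n = 2), or 0.30 in log2 fold change (standard error 0.0544, 95% interval 0.19 to 0.41, adjusted p = 0.000257). This is a rise of 22.9%, against 93.7% for Egln3.

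Egln2, which encodes PHD1, lies on chromosome 7 (27943677 to 27951821, minus strand, ENSMUSG00000058709), and it went the other way without passing. It had 3717 and 3716 normalized counts in WT_CTCF and 3389 and 3363 in MUT_CTCF mESCs. Both MUT_CTCF libraries were thus lower, by more than the spread within either line. Its log2 fold change was -0.14 (standard error 0.0487, 95% interval -0.24 to -0.041, unadjusted p = 0.00619, adjusted p = 0.115, edgeR). The interval of Egln2 does not overlap those of Egln1 and Egln3. It shares 11 of its 2800 exon bases with Cyp2t4, which had 9 to 32 counts.

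The calls of Egln1 and Egln3 depended on the processing. Without a filter on low counts neither passed (adjusted p = 0.103 and 0.108, edgeR), though their log2 fold changes were still 0.30 and 0.95. Without MUT_CTCF replicate 1 the adjusted p was 0.447 for Egln1 and 0.381 for Egln3, and without MUT_CTCF replicate 2 it was 0.381 and 0.439. No gene at all passed in those 2 fits, which have a single MUT_CTCF library assumed to vary like the WT_CTCF libraries, and 1651 and 1585 genes had an unadjusted p under 0.05. DESeq2 called Egln1 (adjusted p = 0.000994) and gave Egln3 an unadjusted p of 8.9e-06 and no adjusted p.

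**Figure D2:**
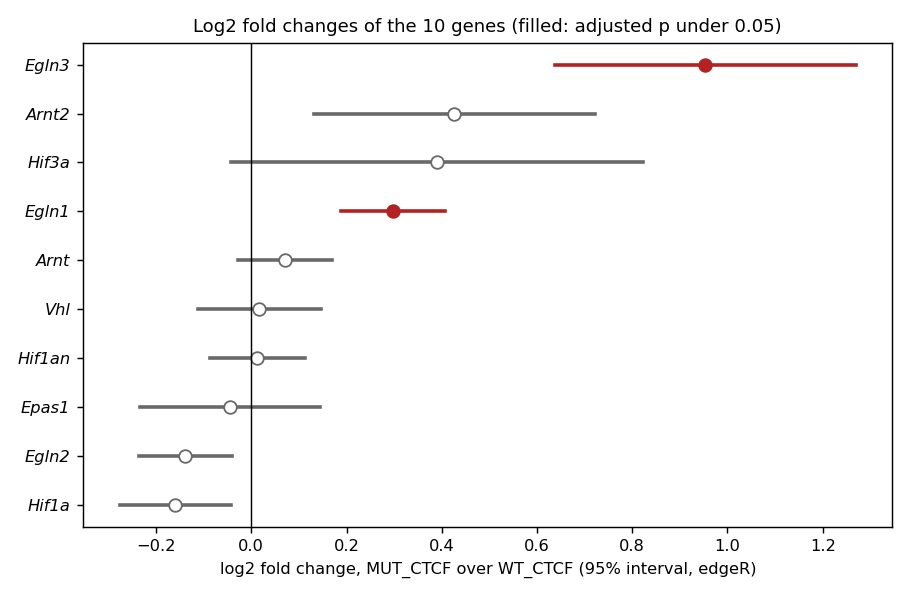
Log2 fold change of MUT_CTCF over WT_CTCF for each of the 10 genes, with its 95% interval from edgeR and filled points where the adjusted p was under 0.05. Egln3 (0.95) and Egln1 (0.30) are filled, the intervals of Arnt2, Hif1a and Egln2 leave out 0 without an adjusted p under 0.05, and the other intervals hold 0.

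Taken per kilobase of exon, so that the genes can be compared, Egln2 was the most abundant prolyl hydroxylase RNA in all 4 libraries, at 32.5 and 32.5 CPM per kilobase in WT_CTCF and 29.7 and 29.4 in MUT_CTCF mESCs. Egln2 made up 63.2% and 62.5% of the summed level of the 3 genes in WT_CTCF and 54.2% and 54.5% in MUT_CTCF mESCs. The share of Egln1 was 33.7% and 33.8% in WT_CTCF and 40.1% and 38.8% in MUT_CTCF mESCs. That of Egln3 was 3.08% and 3.67% in WT_CTCF and 5.72% and 6.75% in MUT_CTCF mESCs. None of the 3 shares overlapped between the lines, and since they add up to the whole they are not separate observations. Among single tested genes, both MUT_CTCF libraries were above both WT_CTCF libraries for 22.3% and below them for 22.3%. The summed level of the 3 genes itself was 51.7 ± 0.389 CPM per kilobase in WT_CTCF and 54.4 ± 0.491 in MUT_CTCF mESCs (SD, n = 2), so the makeup differed more than the total. Each library held 0.0488 and 0.0587 times as much Egln3 as Egln2 RNA per length in WT_CTCF, and 0.106 and 0.124 times in MUT_CTCF mESCs. These shares are levels per length and were not tested.

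**Figure D3:**
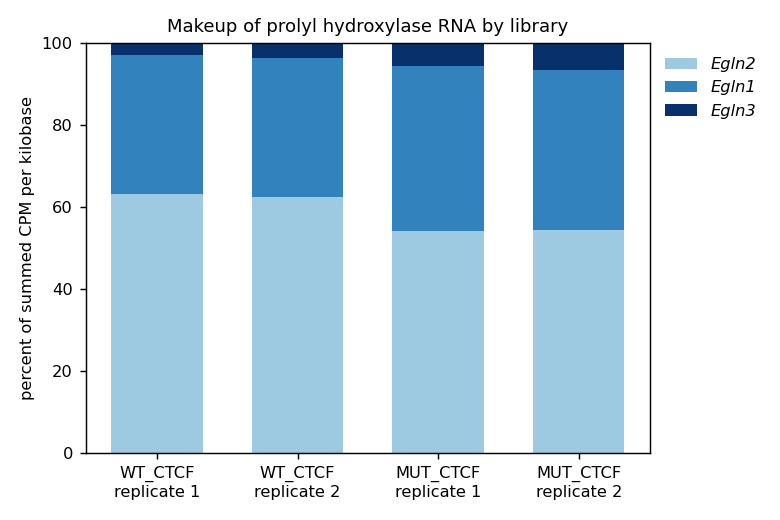
Share of Egln2, Egln1 and Egln3 in the summed CPM per kilobase of exon of these 3 genes, as a stacked bar from 0 to 100% for each library. Egln2 takes 63.2% and 62.5% in WT_CTCF and 54.2% and 54.5% in MUT_CTCF mESCs, and the Egln3 band is widest in the MUT_CTCF libraries.

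The alpha subunits did not pass in either direction. Hif1a, which encodes the alpha subunit found in most cell types, lies on chromosome 12 (75002362 to 75048517, plus strand, ENSMUSG00000021109) and had 2502 and 2702 normalized counts in WT_CTCF and 2373 and 2286 in MUT_CTCF mESCs. Both MUT_CTCF libraries were lower, although the 2 WT_CTCF libraries were farther apart than the nearest libraries of the 2 lines. Its log2 fold change was -0.16 (standard error 0.0580, 95% interval -0.28 to -0.043, unadjusted p = 0.00803, adjusted p = 0.133, edgeR). It was -0.10 without WT_CTCF replicate 2. Gm15283, an annotated RNA on the opposite strand, covers 330 of the 5896 exon bases of Hif1a and had 2 to 5 counts, and the study does not state whether counting used the strand.

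Epas1, which encodes HIF-2 alpha, lies on chromosome 17 (87153247 to 87232750, plus strand, ENSMUSG00000024140). Its normalized counts were 772.2 and 827.9 in WT_CTCF and 772.3 and 779.7 in MUT_CTCF mESCs, and the lines overlapped. The log2 fold change of -0.044 had a 95% interval of -0.23 to 0.14 (adjusted p = 0.893, edgeR). In fold, the interval runs from 0.851 to 1.11, and no difference was detectable within it at this depth.

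Hif3a, which encodes the alpha subunit with variants that can oppose the other two, lies on chromosome 7 (17616856 to 17647776, minus strand, ENSMUSG00000004328). It was the least abundant of the 10 genes, with 156 and 104 reads in WT_CTCF and 165 and 177 in MUT_CTCF mESCs. WT_CTCF replicate 1 stood close to the MUT_CTCF libraries and replicate 2 far below them. The log2 fold change was 0.39 (standard error 0.216, 95% interval -0.044 to 0.82, adjusted p = 0.403, edgeR). Leaving out WT_CTCF replicate 2 gave 0.13 and leaving out WT_CTCF replicate 1 gave 0.71.

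Per length, Hif1a supplied 71.6% and 72.8% of the alpha subunit RNA in WT_CTCF and 70.3% and 69.1% in MUT_CTCF mESCs, Epas1 between 24.5% and 26.2%, and Hif3a between 2.47% and 4.72%. There was 0.343 and 0.340 times as much Epas1 as Hif1a RNA per length in WT_CTCF and 0.361 and 0.379 times in MUT_CTCF mESCs. The summed alpha subunit level was 15.0 ± 0.637 CPM per kilobase in WT_CTCF and 13.9 ± 0.196 in MUT_CTCF mESCs (SD, n = 2).

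The beta subunits pair with the alpha subunits and are not degraded through VHL. Arnt, the common partner (chromosome 3, 95238310 to 95301162, plus strand, ENSMUSG00000015522), had 3670 and 4131 normalized counts in WT_CTCF and 4119 and 4069 in MUT_CTCF mESCs. Its WT_CTCF libraries spanned both MUT_CTCF libraries, and the log2 fold change was 0.070 (standard error 0.0492, 95% interval -0.028 to 0.17, adjusted p = 0.554, edgeR). Arnt2, a second partner known best from neural tissue (chromosome 7, 91394791 to 91558469, minus strand, ENSMUSG00000015709), had 252.4 and 255.6 normalized counts in WT_CTCF and 339.1 and 343.6 in MUT_CTCF mESCs. Its groups did not overlap and its replicates were close together, yet the test, which expects more spread at this level, gave a log2 fold change of 0.43 with a standard error of 0.147 (95% interval 0.13 to 0.72, unadjusted p = 0.00541, adjusted p = 0.107, edgeR). With any library left out, the log2 fold change of Arnt2 stayed between 0.42 and 0.44. Arnt2 was 8.42% and 7.64% of the summed beta subunit level per length in WT_CTCF and 9.91% and 10.1% in MUT_CTCF mESCs.

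Neither remaining gene of the degradation and silencing arms differed detectably. Hif1an, which encodes the asparaginyl hydroxylase FIH (chromosome 19, 44637340 to 44650764, plus strand, ENSMUSG00000036450), had 3923 and 3840 normalized counts in WT_CTCF and 4141 and 3691 in MUT_CTCF mESCs. Its MUT_CTCF libraries lay on either side of the WT_CTCF libraries, and the log2 fold change was 0.013 (95% interval -0.086 to 0.11, adjusted p = 0.946, edgeR). Vhl (chromosome 6, 113573953 to 113581627, plus strand, ENSMUSG00000033933) had 1847 and 1792 normalized counts in WT_CTCF and 1852 and 1831 in MUT_CTCF mESCs. Its log2 fold change was 0.017 (95% interval -0.11 to 0.15, adjusted p = 0.944, edgeR).

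In the order of levels per kilobase of exon, Egln2 (31.0 CPM per kilobase, mean of 4 libraries) stood first, before Egln1 (19.5), Vhl (15.0), Hif1an (14.5), Arnt (12.2), Hif1a (10.3), Epas1 (3.64), Egln3 (2.57), Arnt2 (1.22) and Hif3a (0.550). The order of the means was the same in both lines. Vhl and Hif1an were neighbours that overlapped between libraries in MUT_CTCF mESCs, and so did Epas1 and Egln3, whose levels in WT_CTCF mESCs were apart (3.69 ± 0.182 against 1.75 ± 0.229 CPM per kilobase, SD, n = 2). All other neighbours were apart in each line. The place of Arnt depends on the length used, since its annotated exons cover 8001 bases and its longest transcript 4325. With the longest transcript it stood second, at 22.7 CPM per kilobase.

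**Figure D4:**
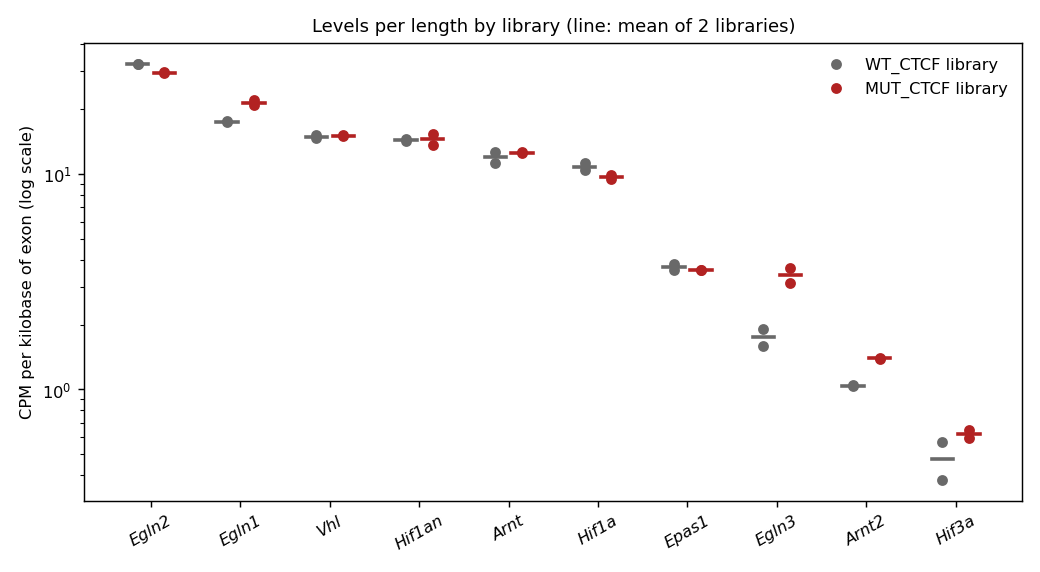
CPM per kilobase of annotated exon for the 10 genes on a log axis, ordered by their mean, with a point per library and a line for the mean of each line. Egln2 is highest at 29.4 to 32.5 and Hif3a lowest at 0.381 to 0.650, and Egln3 lies below Epas1 in MUT_CTCF replicate 1 (3.13 against 3.57) and just above it in MUT_CTCF replicate 2 (3.65 against 3.60).

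Patterns over 4 libraries were compared by the distance between log2 normalized counts centred on each gene's mean, among 11582 genes outside the 10 with a mean of at least 100 normalized counts. The genes nearest to Egln3 were Aire (distance 0.0494, log2 fold change 0.94), Emid2 (0.144 and 0.93) and Pcsk1n (0.160 and 0.84). Those nearest to Egln1 were Hormad2 (0.0139 and 0.31), Chst11 (0.0261 and 0.29) and Slc1a5, a glutamine transporter (0.0272 and 0.30). Hormad2 and Chst11 did not pass (adjusted p = 0.168 and 0.32, edgeR), while Slc1a5 and the genes named for Egln3 did. A similar log2 fold change follows from choosing genes by this distance. With only 4 libraries these are descriptions of shape.

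The other genes of the pathway were read from lists written with earlier results of these data known, and they are described by counts. Of 20 genes of the VHL ubiquitin ligase and of HIF stability, 1 was lower and 0 were higher at an adjusted p under 0.05. Of all tested genes 1.61% were lower and 1.56% higher. The median log2 fold change of the 20 was -0.042, against 0.0034 for all tested genes. The lower gene was Hsp90aa1, an inducible HSP90 chaperone gene, with 15365 ± 15.1 normalized counts in WT_CTCF and 14127 ± 230.6 in MUT_CTCF mESCs (SD, n = 2). Its log2 fold change was -0.12, with a standard error of 0.0299 and adjusted p = 0.0112 (edgeR). The call of Hsp90aa1 was lost without a filter and in each fit with a library left out. At an unadjusted p under 0.05, 5 of the 20 genes were lower and 0 higher, against 15.3% of all tested genes in either direction. Tceb1, which encodes elongin C, the partner that holds VHL in the ligase, stood at -0.17 in log2 fold change without passing (adjusted p = 0.139, edgeR). Gnb2l1, which encodes RACK1, and Fkbp8 had -0.046 and -0.066 and did not pass either. The ligase scaffold Cul2 (0.025) and its RING subunit Rbx1 (-0.012) were close to 0. Tceb2 of the same list had -0.080 (unadjusted p = 0.045, adjusted p = 0.318, edgeR).

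Among 12 coactivators and CITED proteins, 0 were called in either direction by edgeR or DESeq2, and the median was 0.0093. DESeq2 gave Arnt2, at 252.4 to 343.6 normalized counts, no adjusted p, and Cited4 had fewer counts (174.4 to 221.4). Of all tested genes edgeR called 1.56% higher and 1.61% lower. At an unadjusted p under 0.05 there were 2 of the 12, near the 15.3% of all tested genes, both higher, Cited2 (0.12, adjusted p = 0.277), a HIF-induced competitor for the coactivators, and Ncoa1 (0.17, adjusted p = 0.323). Ruvbl2 and Ruvbl1 had log2 fold changes of -0.061 and -0.068. The coactivator genes Ep300 (0.054) and Crebbp (-0.088) did not pass. Of 11 other bHLH-PAS genes, the family of the HIF subunits, 7 were tested and 0 were called by edgeR, against the same shares. DESeq2 called 0 too, but Ahrr, Npas2, Ahr, Npas1 and Clock had fewer counts than Arnt2. At such counts DESeq2 may give no adjusted p, so its 0 adds little. At an unadjusted p under 0.05 there were 0 of the 7, against 15.3% of all tested genes. Arntl2 (0.23), Ahrr (0.41), Npas2 (0.15) and Ahr (0.088) had the smallest p. Sim1, Sim2, Npas3 and Npas4 had at most 6 counts in any library.

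Of 14 other oxygenases that use 2-oxoglutarate, as the EGLN enzymes do, 1 was higher at an adjusted p under 0.05 and 0 were lower. Of all tested genes 1.56% were higher and 1.61% lower. The higher gene was Kdm6b, a demethylase gene for lysine 27 of histone H3. At an unadjusted p under 0.05, 2 of the 14 were higher and 2 lower, against 15.3% of all tested genes in either direction. Kdm6b had 5059 ± 172.0 normalized counts in WT_CTCF and 5687 ± 110.4 in MUT_CTCF mESCs (SD, n = 2), and differed by 0.17 on the log2 scale (edgeR, standard error 0.0422, adjusted p = 0.0126). Its call was lost without a filter and in the fits without WT_CTCF replicate 1 and without either MUT_CTCF library, and it shares 286 exon bases with 1700064E03Rik. The next 3 by p were Kdm3b (-0.10), Kdm5b (0.056) and Kdm5a (-0.17), which did not pass. The median of these genes was -0.020, and P4htm, a membrane-bound relative of the prolyl hydroxylases, had -0.049.

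Textbook HIF target genes, unlike the lists above, included many called genes. Of 36 genes 34 were tested, and 20 were higher at an adjusted p under 0.05, against 1.56% of all tested genes. Lower genes numbered 0, against 1.61%, and the median log2 fold change was 0.33. At an unadjusted p under 0.05, 22 were higher and 3 lower, against 15.3% of all tested genes in either direction. DESeq2 called 17 higher and 0 lower. Ndufa4l2 and Car12, called by edgeR (adjusted p = 2.82e-10 and 0.0013), had fewer counts than Egln3, which DESeq2 gave no adjusted p. The 4 with the smallest p were the lactate exporter gene Slc16a3 (1.03), the mitophagy receptor gene Bnip3 (1.60), the glucose transporter gene Slc2a1 (0.47) and the lactate dehydrogenase gene Ldha (0.30). Slc16a3 had 1440 ± 43.3 normalized counts in WT_CTCF and 2937 ± 82.3 in MUT_CTCF mESCs (SD, n = 2), with a standard error of 0.0614 and an adjusted p of 1.58e-19 from edgeR, and it shares 831 exon bases with Csnk1d, as Slc2a1 shares 105 with Gm12868. Of the 34 tested targets, 29 had a positive log2 fold change, against 50.8% of all tested genes. Among those that did not pass were the histone demethylase gene Kdm3a (-0.12, adjusted p = 0.0586, edgeR), Hmox1 (-0.10), Plod2 (0.19), Higd1a (0.17) and Bnip3l (0.021). Ankrd37 (-0.32, adjusted p = 0.577, edgeR) did not pass either. It had 104.1 to 147.3 normalized counts and shares 349 exon bases with Lrp2bp. The count of 20 was 10 without a filter and 0 without either MUT_CTCF library, where no gene passed. This list was not chosen independently of these data, and these counts do not say what moved the genes.

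**Figure D5:**
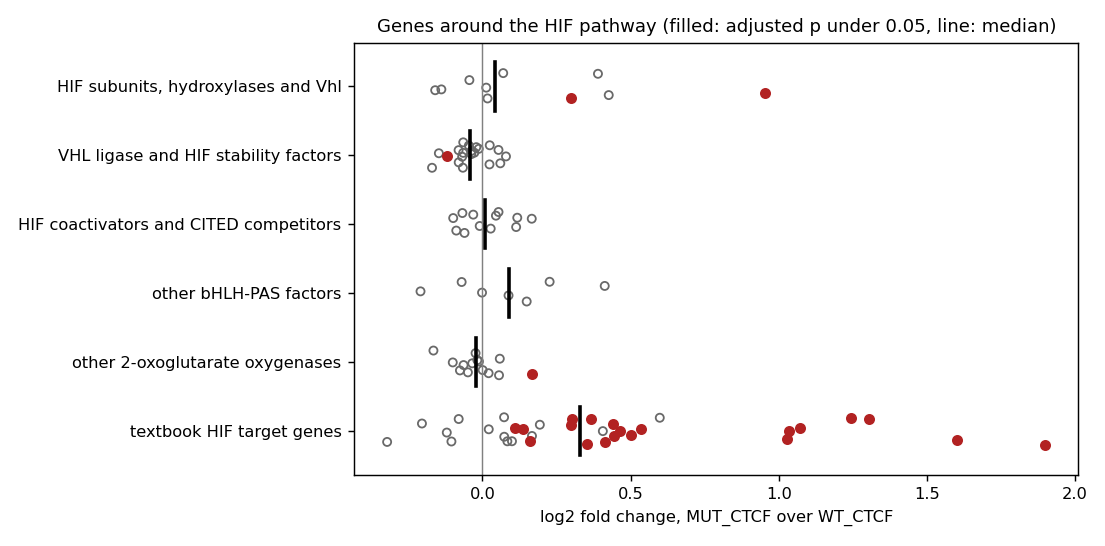
Log2 fold changes of the tested genes of 6 groups, the 10 genes described here and the 5 lists, with a point per gene, filled where the adjusted p was under 0.05, and a black line for the median. The HIF target genes have a median of 0.33 and reach 1.90, while the ligase, coactivator, bHLH-PAS and oxygenase lists stay between -0.21 and 0.41.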

How the data were processed

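Reads were trimmed by the authors (Trim Galore 0.4.4) and aligned to mm9 with STAR. Uniquely mapped reads per gene were counted with HTSeq 0.9.1 (versions per the submitters' processing notes), and the authors deposited these counts without normalization. Strand setting and annotation version are not given in the sources used here. A deposited table of the authors' own edgeR comparison (fold changes and p-values) was not used. The GENCODE M1 annotation (NCBIM37, mm9) named 37205 of 37620 identifiers. Genes were kept by filterByExpr at a minimum of 10 counts, scaled by TMM and tested with edgeR 4.0.16 in R 4.3.3 (glmQLFit, glmQLFTest, line alone), and the standard error is the size of the log2 fold change over the root of F. Intervals use the quasi-likelihood degrees of freedom. The fit was tested on simulated data. The tested genes held at least 99.95% of the counts of each library. DESeq2 1.42.0, other scalings, filters, blocking by replicate number and leaving out each library were tried. Levels per length are TMM-scaled CPM per kilobase of merged exons. All 10 genes were named by rule, with up to 4 genes per list by smallest p, and further list genes were named after their values were seen. The genes and lists were chosen with earlier results of these data known.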

Additional observations from a re-analysis of the deposited data

How the results depend on the processing

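Of the 10 genes, 2 were higher at an adjusted p under 0.05, and 0 without a filter on low counts, where 29 of 23739 genes passed in all. With a library left out the number was 0 to 2, and with DESeq2 1, since DESeq2 gave Hif3a, Arnt2 and Egln3 no adjusted p. The number lower was 0 in every alternative tried. The number past the study's criterion was 0, or 0 to 1 with a library left out, where Egln3 passed without WT_CTCF replicate 2 and without MUT_CTCF replicate 1. The log2 fold change of Egln1 was 0.30 without a filter and 0.26 to 0.33 with a library left out, and that of Egln3 0.95 and 0.83 to 1.09. With a library left out, Epas1 ran from -0.094 to 0.0060, Arnt from -0.013 to 0.16, Hif1an from -0.073 to 0.092 and Vhl from -0.0054 to 0.039, and so changed sign without passing. The 2 lines share replicate numbers, but samples with the same number did not deviate together (correlation across tested genes -0.0057). No pairing by number was thus seen, though 1 difference per line cannot settle whether the samples were handled in pairs. With the replicate block the log2 fold changes of Egln1 and Egln3 were 0.30 and 0.96, 2 of the 10 genes were higher and 0 lower, and 698 in place of 515 genes passed in all. HIF target genes called lower were 1 in place of 0 with the block and with at least 10 reads in every library, and oxygenase genes called lower 1 in place of 0 with the block. With the longest transcript as length, the shares in WT_CTCF and MUT_CTCF mESCs were 76.3% and 74.0% for Hif1a, 20.9% and 22.0% for Epas1, 95.5% and 94.3% for Arnt, 4.51% and 5.68% for Arnt2, 28.0% and 33.5% for Egln1, 69.2% and 61.3% for Egln2, 2.80% and 5.29% for Egln3, and 4.01% for Hif3a in MUT_CTCF mESCs. Depth limits Hif3a most, with 104 to 177 reads per library.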
